A study of Rattus norvegicus with 294 samples.

Results

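Endothelial cells line blood vessels and hold together at junctions, and in bone they form the arterial capillaries and the wide marrow sinusoids that lie next to the bone surface. The genes described here are 7 that mark these cells, taken by name: Emcn, Plvap, Kdr, Cdh5, Pecam1, Tek and Bcl6b. Each was read from the probe set annotated to that gene alone, and where a gene had several, from the one with the highest mean signal. A probe set was listed for 6 of the 7, out of 14217 genes that had a probe set of their own, and Cdh5 is not analysed here. The chosen probe sets were 1372587_at for Emcn, 1368284_at for Plvap, 1367948_a_at for Kdr, 1371545_at for Pecam1, 1393067_at for Tek and 1386832_a_at for Bcl6b. All 6 passed the filter on low signal in each of the 3 cell types, which asked for a signal above the array's median on at least 5 arrays.

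The 6 measured genes have different roles in the vessel wall. Emcn encodes endomucin, a surface sialomucin of capillary, venous and sinusoidal endothelium, and high Emcn together with high Pecam1 marks a capillary type found beside forming bone in mice. Plvap encodes the protein of the diaphragms that close the pores of fenestrated endothelium. Kdr is the main signalling receptor for VEGF, and Tek, also called Tie2, is the receptor for the angiopoietins. Pecam1, or CD31, is an adhesion molecule of endothelial junctions that platelets and leukocytes also carry. Bcl6b is a zinc-finger repressor found in endothelium and in some lymphocytes.

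The captures came from ovariectomized female Sprague-Dawley rats that were 6 months old at surgery and were left untreated for 8 weeks after it. They then received weekly subcutaneous Scl-Ab at 3 or 50 mg/kg, or vehicle, up to day 183. Scl-Ab binds sclerostin, which osteocytes secrete and which restrains Wnt signalling and bone formation, and the form used was engineered to be less immunogenic in rats. Vehicle was a buffer of Tween 20, sucrose and sodium acetate. Rats were killed on days 8, 29, 85 and 183 of dosing, and during a treatment-free period on days 197 and 267 for 3 mg/kg and its vehicle and on days 237 and 309 for 50 mg/kg and its vehicle. Every rat in the comparison, vehicle included, had lost its ovaries. Osteoblasts, lining cells and osteocytes were enriched by laser capture from cryosections of a lumbar vertebra, with calcein label showing the forming surfaces, and amplified RNA was hybridised to Affymetrix Rat 230_2 arrays. There were 294 arrays, 174 from antibody-treated and 120 from vehicle rats, made up of 97 osteoblast, 100 lining cell and 97 osteocyte captures in 60 groups. The groups held 5 arrays with few exceptions. Osteoblast captures had 4 arrays for 3 mg/kg on day 8 and for 50 mg/kg on days 85 and 237, and osteocyte captures had 4 for 3 mg/kg on day 29 and 3 for 50 mg/kg on day 85. The labels do not name the rat behind an array, so the p-values measure the spread between arrays, and captures of different cell types from the same rats enter as if they were separate.

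A capture is an enrichment, and the labelled cell type was only partly borne out by its defining genes in vehicle rats. All 5 osteocyte markers tested were lower in lining cell captures (median log2 difference -1.28) and in osteoblast captures (median log2 difference -1.04) than in osteocyte captures. All 7 osteoblast markers tested were also lower in osteoblast captures than in osteocyte captures, with a median log2 difference of -1.25, while against lining cell captures 3 of the 7 were higher in osteoblast captures and 1 was lower (median log2 difference 0.25). All 11 platelet and megakaryocyte genes tested were higher in osteoblast captures (median log2 difference 1.74) and in lining cell captures (median log2 difference 1.81) than in osteocyte captures. All 4 osteoclast markers tested were lower in osteoblast captures than in osteocyte captures (median log2 difference -1.06). In lining cell captures 3 of the 4 were lower than in osteocyte captures (median log2 difference -0.46). Many genes differed in these comparisons. The share called in either direction was 63.8% for osteoblasts against osteocytes, 58.5% for lining cells against osteocytes and 33.5% for osteoblasts against lining cells. Signal is in arbitrary units on an array, with a floor and no true 0, so levels are compared for one probe set across samples and never between genes. In these bulk captures, fewer endothelial cells and less RNA per cell cannot be told apart.

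The windows upstream of Emcn, Plvap and Kdr are shown because no other member had one, Tek and Pecam1 included. Any part of these sequences in the changes was not tested. RefSeq's promoter table for rat GRCr8 held 3 of the 7 genes, Emcn, Plvap and Kdr. Each sequence runs 5′ to 3′ towards the gene and ends before its annotated span, and capitals mark letters that match 1 of 4 short motifs on either strand: the ETS motifs AGGAAG and CGGAAG, the FOX:ETS motif AACAGGAA and the GATA motif AGATAA. The window of Emcn lies at chr2:228564289-228564444 on the plus strand, that of Plvap at chr16:18231280-18231529 on the minus strand and that of Kdr at chr14:32571813-32572030 on the plus strand.
Emcn: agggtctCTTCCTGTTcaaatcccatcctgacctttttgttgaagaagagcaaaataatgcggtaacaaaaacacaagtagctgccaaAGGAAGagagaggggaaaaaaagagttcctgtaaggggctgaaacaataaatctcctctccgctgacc
Plvap: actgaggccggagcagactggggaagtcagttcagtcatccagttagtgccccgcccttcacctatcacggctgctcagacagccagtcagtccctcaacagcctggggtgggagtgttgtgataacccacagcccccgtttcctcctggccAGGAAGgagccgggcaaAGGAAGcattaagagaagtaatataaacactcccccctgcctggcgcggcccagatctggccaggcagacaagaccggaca
Kdr: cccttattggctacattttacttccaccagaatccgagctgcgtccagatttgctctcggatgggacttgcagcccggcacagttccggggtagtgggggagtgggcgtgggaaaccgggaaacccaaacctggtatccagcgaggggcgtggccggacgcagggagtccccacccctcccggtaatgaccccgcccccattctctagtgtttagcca
In the 250 bases before the start the table uses, Emcn held AGGAAG at 2 places and AACAGGAA at 1, and the AACAGGAA match overlaps the upstream AGGAAG, both read on the opposite strand. Plvap held AGGAAG at 2 places on its own strand. None of the 4 motifs was found in the Kdr window. Of 33469 rat windows of the same length, 29.5% held AGGAAG, 13.9% held CGGAAG, 10.3% held AGATAA and 2.14% held AACAGGAA.

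In vehicle rats, Emcn, Kdr and Tek were lower in osteocyte captures than at the bone surface, while Pecam1 sat near the array median everywhere. These levels were compared after quantile normalization of the 120 vehicle arrays together, with day as a term in limma, because the cell types appear to have been normalized apart. Kdr averaged a log2 level of 4.49 ± 0.40 in osteoblast captures and 4.46 ± 0.33 in lining cell captures, against 3.13 ± 0.37 in osteocyte captures (SD, n = 40 each). It was above the array median on all 40 arrays of both surface types but on 16 of 40 osteocyte arrays, so the VEGF receptor was close to the array median in osteocytes. The log2 difference from osteocytes was 1.36 ± 0.06 for osteoblasts and 1.32 ± 0.06 for lining cells (SE, limma adjusted p = 1.03e-39 and 8.86e-39).

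The angiopoietin receptor and endomucin were also lower in osteocytes than in both surface types, with smaller differences. Tek averaged a log2 level of 5.02 ± 0.38 in osteoblasts and 4.91 ± 0.30 in lining cells, against 4.11 ± 0.47 in osteocytes, and Emcn averaged 4.88 ± 0.71 in osteoblasts and 5.04 ± 0.43 in lining cells, against 4.20 ± 0.56 in osteocytes (SD, n = 40 each). Plvap was a bright probe set in all 3 types, at a log2 level of 5.70 ± 0.54 in osteoblasts, 5.93 ± 0.52 in lining cells and 5.63 ± 0.60 in osteocytes. Its lining cell level passed the test against osteocytes (log2 difference 0.30 ± 0.10, SE, limma adjusted p = 0.00655), while its osteoblast level did not (0.07 ± 0.10, adjusted p = 0.541). Bcl6b was higher in both surface types than in osteocytes, by 0.33 ± 0.10 in osteoblasts and 0.52 ± 0.10 in lining cells on the log2 scale (SE), and array weights removed the osteoblast call (adjusted p = 0.0618). In all, 4 of 6 members passed for osteoblasts against osteocytes and 5 of 6 for lining cells against osteocytes. The background is large, since 63.8% and 58.5% of 11854 genes tested passed in these contrasts. Between the 2 surface types the only member called was Pecam1, by -0.13 ± 0.05 for osteoblasts minus lining cells (SE, adjusted p = 0.0192), against 33.5% of genes. That sign turned to 0.16 on the deposited values without joint normalization.

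**Figure D1:**
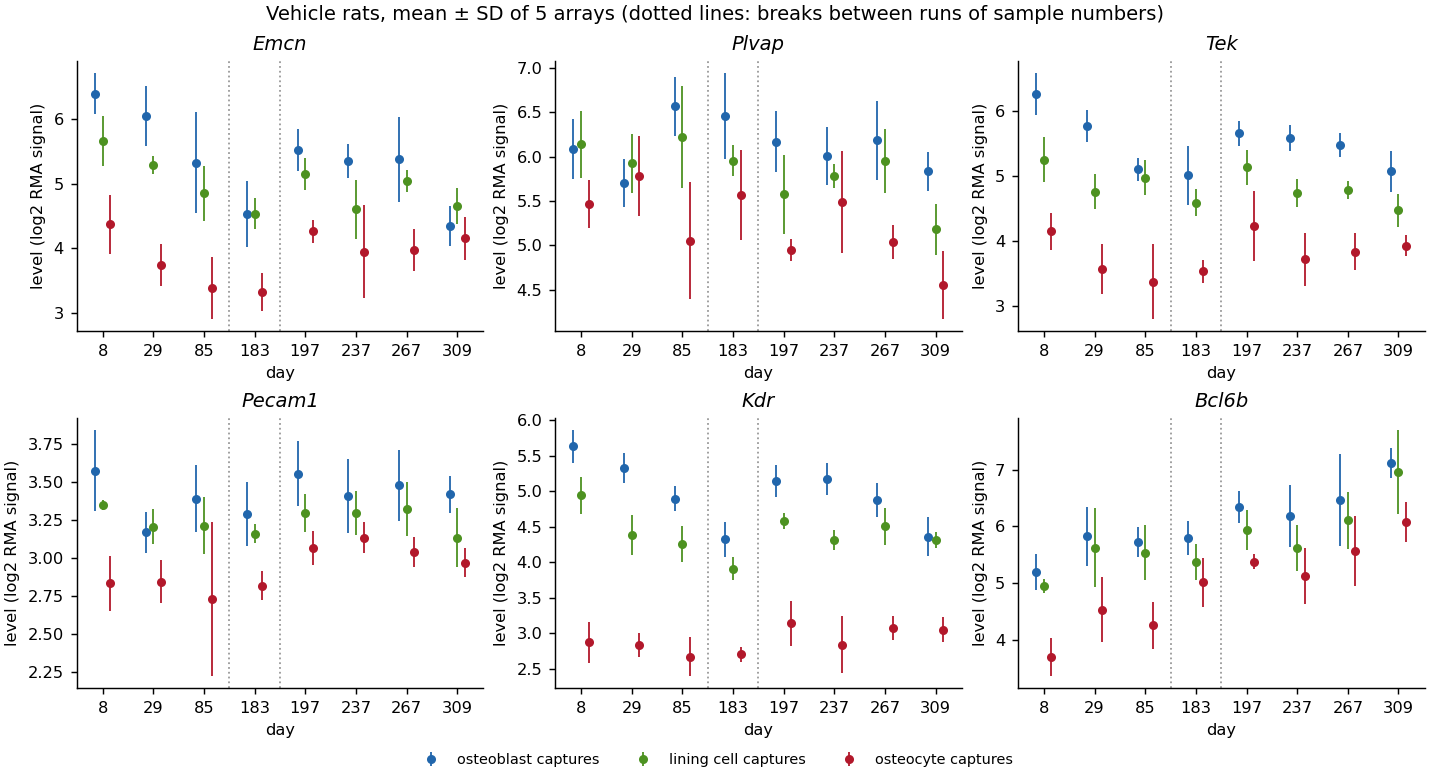
Levels of the 6 genes in vehicle rats by day, as log2 of the deposited RMA signal, with the mean and SD of 5 arrays for each cell type. Emcn, Kdr and Tek were highest on day 8 at the bone surface and had their lowest means in osteocyte captures on every day. The cell types appear to have been normalized apart in these values. Minus the array median, mean Emcn on day 309 was 0.77 in osteoblast, 1.20 in osteocyte and 1.45 in lining cell captures. Bcl6b had its highest mean on day 309 in all 3 cell types. Dotted lines mark breaks between runs of sample numbers in the labels.

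Vehicle levels were not flat over the study. Between day 85 and day 8, which share a run of sample numbers, Emcn fell by 1.06 ± 0.27, Kdr by 0.74 ± 0.18 and Tek by 1.15 ± 0.19 on the log2 scale in osteoblast captures (SE). In osteocyte captures Emcn fell by 0.99 ± 0.27 and Tek by 0.77 ± 0.24, and in lining cells Kdr fell by 0.69 ± 0.17. These counts of 3, 2 and 1 of 6 members stand beside 40.6%, 35.8% and 3.84% of all genes tested in osteoblasts, osteocytes and lining cells, so in osteoblasts and osteocytes a large part of the array moved with them. The spread of signal on the arrays, taken as the 90th minus the 50th percentile of log2 values, was also smaller on day 85, at 3.04 against 3.48 on day 8 in osteoblasts and 2.68 against 3.20 in osteocytes. With that spread as a covariate, Emcn in osteoblasts (-0.37, adjusted p = 0.414) and Emcn and Tek in osteocytes (-0.26 and -0.46, adjusted p = 0.731 and 0.444) lost their calls. The mean of both Kdr probe sets ended the Kdr calls in osteoblasts and lining cells (adjusted p = 0.779 and 0.602), and so did the covariate in lining cells (adjusted p = 0.054). The Kdr probe set that was not chosen had mean log2 levels of 2.93 in osteoblasts and 2.83 in lining cells, below the array median on average. Without vehicle replicate 2 of day 85 the osteocyte call for Tek was lost (adjusted p = 0.0706), and without vehicle replicate 2 of day 8 so was the lining cell call for Kdr (adjusted p = 0.0594). The later days lie in other runs of sample numbers and are given as levels only. Mean Emcn in osteocyte captures was lowest on day 183, at 3.33, and highest on day 8, at 4.38, and mean Bcl6b was lowest on day 8, at 3.70, and highest on day 309, at 6.08.

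In osteocyte captures Emcn, Plvap, Tek and Pecam1 rose against vehicle at 50 mg/kg on days 85, 183 and 237. Each contrast was tested with limma over all arrays of a cell type, with p-values adjusted over all genes by the Benjamini-Hochberg method and a threshold of 0.05. At 50 mg/kg, 16 of 36 member tests in osteocytes were called over the 6 days, 15 of them higher. On dosing days both doses share their vehicle arrays. At 3 mg/kg, 0 of 36 were called, with 1 at an unadjusted p under 0.05. Over the same contrasts 8.92% of all gene tests in osteocytes were called at 50 mg/kg and 1.04% at 3 mg/kg.

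**Figure D2:**
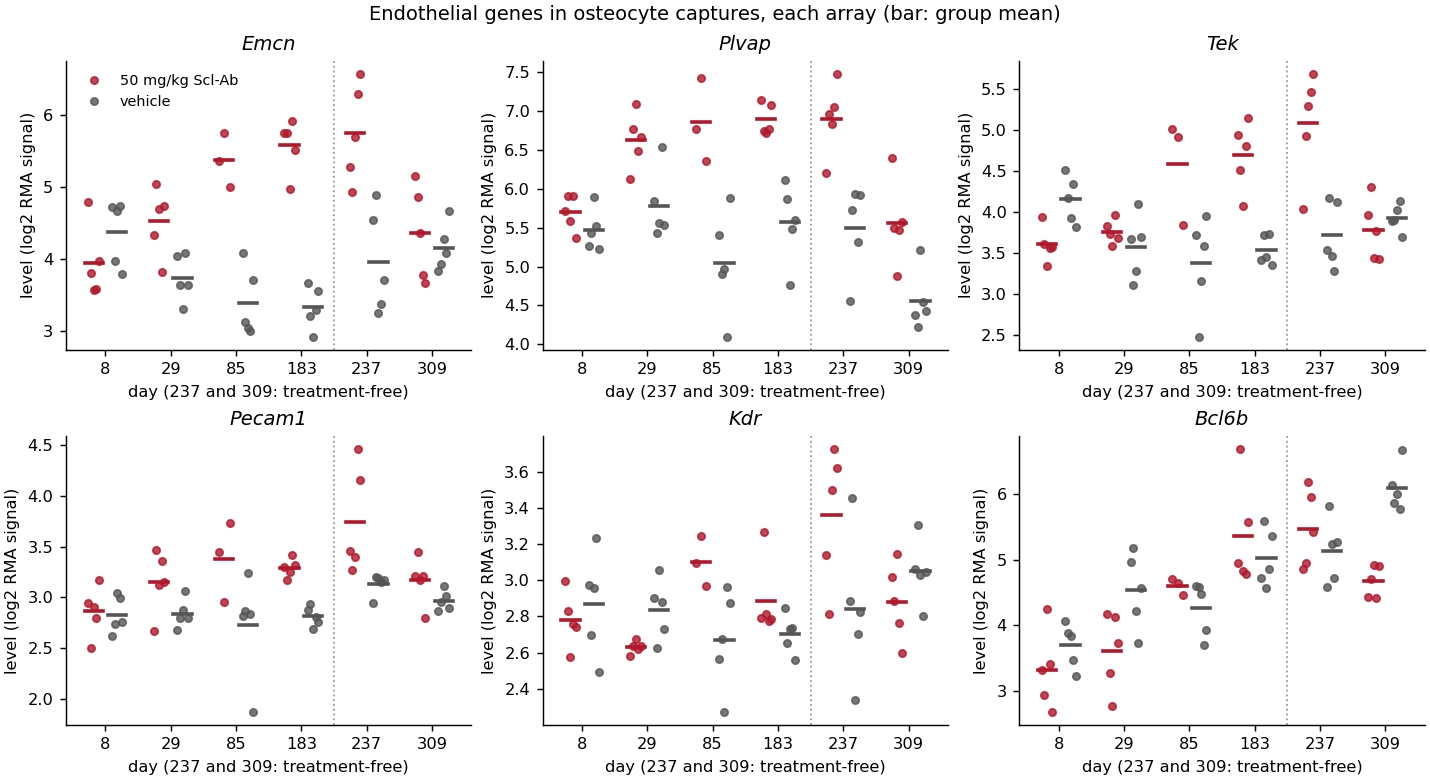
Log2 RMA signal of the 6 genes on every osteocyte array, with 50 mg/kg Scl-Ab left of vehicle on each day and bars at group means. On day 183 the 50 mg/kg arrays lie at 4.97 to 5.92 for Emcn and 4.08 to 5.14 for Tek, above all vehicle arrays, and on day 309 the groups overlap for both.

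Emcn had the largest change. On day 183 its log2 levels were 5.75, 5.75, 4.97, 5.92 and 5.51 in 50 mg/kg osteocyte captures, against 3.66, 3.21, 2.92, 3.29 and 3.55 in vehicle captures. Every antibody array was above every vehicle array. The log2 change was 2.25 ± 0.27 (SE, adjusted p = 2.23e-09), a 4.77-fold difference. On day 85 the levels were 5.35, 5.75 and 5.00 at 50 mg/kg and 4.08, 3.12, 3.04, 2.99 and 3.71 in vehicle, again with no overlap, for a log2 change of 1.98 ± 0.32 (adjusted p = 3.08e-06). On day 29 the levels were 4.32, 5.04, 4.69, 3.81 and 4.74 at 50 mg/kg, against 4.04, 3.63, 3.29, 4.07 and 3.63 in vehicle. These groups overlapped, and the log2 change of 0.79 ± 0.27 did not pass (adjusted p = 0.0669). The difference outlasted dosing. On day 237, in the treatment-free period, Emcn stood at 5.27, 4.92, 5.68, 6.28 and 6.56 in rats that had received 50 mg/kg and at 4.53, 4.88, 3.24, 3.37 and 3.71 in vehicle rats (log2 change 1.80 ± 0.27, adjusted p = 5.65e-07), with no overlap. On day 309 the antibody arrays, at 5.15, 4.85, 4.36, 3.77 and 3.67, lay across the vehicle arrays, at 3.83, 3.93, 4.27, 4.08 and 4.67, and the log2 change of 0.20 ± 0.27 did not pass (adjusted p = 0.668).

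Plvap, the diaphragm protein of fenestrated vessels, was called on 5 of the 6 days. On day 183 it had log2 levels of 7.15, 6.75, 6.72, 6.77 and 7.07 at 50 mg/kg, against 6.11, 5.87, 4.77, 5.49 and 5.60 in vehicle, with no overlap and a log2 change of 1.32 ± 0.25 (SE, adjusted p = 7.79e-05). On day 85 it had 6.77, 7.43 and 6.36 at 50 mg/kg, against 5.40, 4.90, 4.97, 4.10 and 5.88 in vehicle, a log2 change of 1.81 ± 0.29 (adjusted p = 2.7e-06). Its call came earlier than that of the other members, on day 29 (0.85 ± 0.25, adjusted p = 0.0214), and there it was lost without antibody replicate 2 or 3 or vehicle replicate 2 or 5 (highest adjusted p = 0.105). On day 29 all 5 osteocyte markers tested rose too, with a median log2 change of 1.35, and 3 of 6 granulocyte, 2 of 4 osteoclast, 1 of 9 macrophage and 1 of 2 B lineage genes fell, beside 3.26% of all genes called lower. The summed signal of the 6 osteocyte markers on the array ran between 8873 and 18459 at 50 mg/kg and between 2443 and 7310 in vehicle, without overlap, and that of the granulocyte genes between 1692 and 6328 at 50 mg/kg and between 5409 and 6453 in vehicle. Their part in the Plvap change was not tested. After dosing, the day 237 levels were 6.20, 6.96, 6.83, 7.06 and 7.47 in 50 mg/kg captures and 4.55, 5.72, 5.93, 5.32 and 5.92 in vehicle captures (1.41 ± 0.25, adjusted p = 1.29e-05). Plvap was also the only member still higher on day 309, at 6.40, 5.50, 4.88, 5.47 and 5.57 against 4.37, 4.22, 5.21, 4.54 and 4.43 in vehicle (1.01 ± 0.25, adjusted p = 0.0022), though the lowest antibody array, at 4.88, was below the highest vehicle array. The vehicle mean of 4.55 on that day was the lowest of the 8 vehicle days in osteocytes.

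Among the receptors, Tek rose and Kdr was called on 1 day. On day 183 Tek had log2 levels of 4.94, 4.52, 4.08, 4.80 and 5.14 in 50 mg/kg osteocyte captures, against 3.42, 3.72, 3.45, 3.73 and 3.35 in vehicle, without overlap. The log2 change was 1.16 ± 0.24 (SE, adjusted p = 0.000345) on day 183 and 1.36 ± 0.24 (adjusted p = 1.17e-05) on day 237. On day 237 the groups overlapped, with the lowest antibody array at 4.04 and the highest vehicle array at 4.17. On day 85 Tek stood at 5.01, 4.91 and 3.85 at 50 mg/kg and at 3.72, 2.49, 3.16, 3.58 and 3.95 in vehicle (1.21 ± 0.27, adjusted p = 0.0013), a call that array weights (adjusted p = 0.0578) and a fit of those groups alone (adjusted p = 0.157) removed. Kdr was near the array median in osteocytes, and its day 237 levels of 3.14, 2.82, 3.50, 3.72 and 3.62 at 50 mg/kg overlapped the vehicle levels of 2.88, 3.45, 2.34, 2.70 and 2.83. Its log2 change of 0.52 ± 0.17 passed (adjusted p = 0.027), but the call was lost without antibody replicate 3, 4 or 5 or vehicle replicate 3, 4 or 5 (highest adjusted p = 0.138) and in a fit of those groups alone (adjusted p = 0.179).

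Pecam1 moved in the same direction over a small range close to the array median. On day 183 its log2 levels were 3.30, 3.17, 3.25, 3.42 and 3.32 at 50 mg/kg, against 2.88, 2.94, 2.69, 2.81 and 2.76 in vehicle, with no overlap. The log2 change was 0.48 ± 0.15 (SE, adjusted p = 0.035) on that day, 0.65 ± 0.17 (adjusted p = 0.0063) on day 85 and 0.61 ± 0.15 (adjusted p = 0.00194) on day 237. On day 85 the groups overlapped, with the lowest antibody array at 2.95 and the highest vehicle array at 3.24. The day 183 call was lost without antibody replicate 1, 4 or 5 or vehicle replicate 3, 4 or 5 (highest adjusted p = 0.0988), and the day 85 call without antibody replicate 3 or vehicle replicate 5 (highest adjusted p = 0.119) and with array weights (adjusted p = 0.186). A fit of the day 237 groups alone removed that day's call (adjusted p = 0.106).

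Over these contrasts 1, 4, 4, 5 and 1 of the 6 members rose in osteocytes at 50 mg/kg on days 29, 85, 183, 237 and 309. The share of all genes called higher on those days was 3.24%, 6.64%, 4.93%, 7.04% and 5.36%. The median log2 change of the 6 members was 0.93 on day 85, 0.82 on day 183 and 0.99 on day 237, while that of all genes tested was 0.02, 0.00 and -0.01. On day 8 none of the 6 was called at either dose, 1 passed an unadjusted p of 0.05 at 50 mg/kg by limma, 0.928% of all genes were called there, and the median change of the members was -0.23 at 50 mg/kg. The spread of signal on the osteocyte arrays was 2.90 for 50 mg/kg and 2.93 for vehicle on day 29, 2.76 and 2.68 on day 85, and 2.76 and 2.63 on day 183. It was 3.04 and 3.08 on day 237 and 2.94 and 3.15 on day 309. With that spread as a covariate all 16 osteocyte calls stood.

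The response in osteocytes also differed between days. Emcn's response, as the mean of both doses minus vehicle, was larger on day 85 than on day 8 by 1.54 ± 0.34 and on day 183 than on day 8 by 1.59 ± 0.33 on the log2 scale (SE, adjusted p = 0.0072 and 0.00984), and Tek's was larger on day 85 by 1.13 ± 0.30 (adjusted p = 0.0296). These contrasts share the day 8 arrays. The shares of all genes called were 1.57% for day 85 and 0.514% for day 183. Each response also holds the vehicle arrays of its day. In those arrays the log2 change from day 8 to day 85 in osteocytes was -0.99 for Emcn and -0.77 for Tek. The day 183 difference for Emcn was lost without vehicle replicate 3 of that day (adjusted p = 0.0551), and that for Tek without any of 6 of 28 arrays, namely replicate 3 of 3 mg/kg and replicates 1 and 4 of vehicle on day 8, and replicates 1 and 2 of 50 mg/kg and 2 of vehicle on day 85 (highest adjusted p = 0.102) and with array weights (adjusted p = 0.054). In osteoblasts Plvap's response was larger on day 29 than on day 8 by 0.84 ± 0.25 (adjusted p = 0.0269) and Tek's on day 85 than on day 8 by 1.01 ± 0.23 (adjusted p = 0.0182), beside 8.15% and 0.657% of all genes. Mean Tek in vehicle osteoblast captures went from 6.25 on day 8 to 5.10 on day 85. At 3 mg/kg it went from 5.98 to 5.38 and at 50 mg/kg from 5.55 to 5.86. The Plvap difference was lost without replicate 2 of 3 mg/kg or of vehicle on day 8 or replicate 1 or 2 of vehicle on day 29 (highest adjusted p = 0.113), and the Tek difference without vehicle replicate 4 of day 85 (adjusted p = 0.0528). No member was called in lining cells, where 1, 4 and 2 of 11600 genes were called for days 29, 85 and 183.

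The 2 doses were compared directly in osteocyte captures. Averaged over the 4 dosing days, 50 mg/kg minus 3 mg/kg was 1.13 ± 0.14 for Emcn, 0.96 ± 0.13 for Plvap, 0.59 ± 0.12 for Tek and 0.30 ± 0.08 for Pecam1 on the log2 scale (SE, adjusted p = 3.54e-09, 2.4e-08, 0.000252 and 0.00326). That is 4 of 6 members, beside 15.0% of all genes tested, and the 4 calls stood with any single array left out. These values share the 50 mg/kg arrays with the contrasts against vehicle. At 3 mg/kg, Emcn on day 183 had log2 levels of 3.18, 3.18, 3.85, 3.78 and 3.49, overlapping the vehicle arrays, and Plvap had 6.16, 6.00, 6.30, 5.95 and 5.65, which overlapped them too. By day, an addition made after the values were seen, the 50 minus 3 mg/kg difference for Emcn was 0.93 ± 0.29 on day 29, 1.63 ± 0.32 on day 85 and 2.08 ± 0.27 on day 183 (SE), where 6.34%, 7.05% and 2.80% of all genes were called. The Emcn difference on day 29 was lost without the outlying replicate 2 of 3 mg/kg (adjusted p = 0.0521). Plvap was higher at 50 than at 3 mg/kg by 1.12 ± 0.26 on day 29, 1.50 ± 0.29 on day 85 and 0.88 ± 0.25 on day 183 (adjusted p = 0.00287, 0.000185 and 0.03). Tek was higher by 1.06 ± 0.27 on day 85 and 1.34 ± 0.24 on day 183 (adjusted p = 0.00737 and 8.83e-05), and array weights removed its day 85 call (adjusted p = 0.172). Bcl6b was lower on day 29, with a log2 difference of -1.29 ± 0.36 (adjusted p = 0.0144), a call lost with the mean of its probe sets (-0.31, adjusted p = 0.136) and without that outlying array (-1.03, adjusted p = 0.103). Pecam1 and Kdr were called on no single day. In osteoblasts the only member called by day was Plvap on day 29 (0.81 ± 0.21, adjusted p = 0.0132), beside 4.17% of all genes, and in lining cells none was called. In the mean over days none of the 6 was called in osteoblast captures, beside 2.53% of all genes, or in lining cell captures, beside 0.647%. At 3 mg/kg the member changes against vehicle in osteocytes ran between -0.66, for Bcl6b on day 183, and 0.57, for Emcn on day 267.

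**Figure D3:**
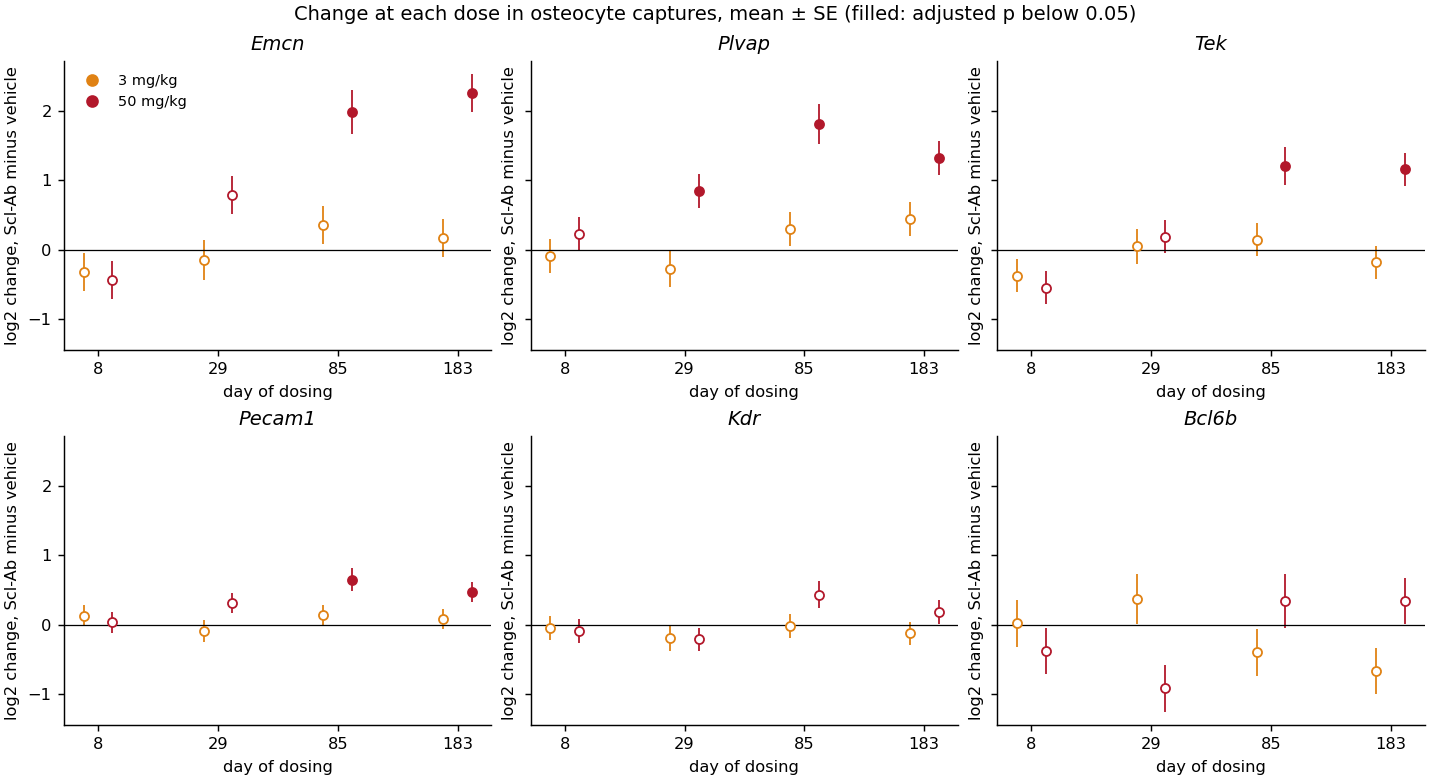
Log2 change against vehicle in osteocyte captures on the 4 dosing days, mean with SE, for 3 and 50 mg/kg. Filled points passed the adjusted threshold. On day 183 the 50 mg/kg points for Emcn and Tek lie at 2.25 and 1.16, and no 3 mg/kg point is filled.

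At the bone surface the same genes did not follow this course. In osteoblast captures 7 of 36 member tests at 50 mg/kg were called, 3 higher and 4 lower, beside 11.1% of all gene tests, and 0 of 36 at 3 mg/kg, beside 0.140%, with 13 and 1 at an unadjusted p under 0.05 by limma. Plvap rose on day 29, at log2 levels of 6.73, 7.17, 6.90, 6.79 and 6.96 in 50 mg/kg captures against 5.37, 5.45, 5.88, 5.82 and 5.99 in vehicle captures, without overlap (log2 change 1.21 ± 0.21, SE, adjusted p = 1.62e-05). On that day 28.4% of all genes were called. The 7 osteoblast markers summed to between 21706 and 24115 signal units at 50 mg/kg and between 8965 and 15045 in vehicle, and the 11 platelet and megakaryocyte genes to between 9796 and 15892 at 50 mg/kg and between 7660 and 12826 in vehicle, and their part in the result was not tested. Kdr fell on the same day by 0.47 ± 0.18 (adjusted p = 0.0353). That Kdr call was lost without antibody replicate 1, 2 or 4 or vehicle replicate 1, 2 or 3. It was also lost with quantile normalization of the osteoblast arrays (adjusted p = 0.153) and with signal spread as a covariate (adjusted p = 0.349). Tek fell by 0.70 ± 0.19 on day 8 (adjusted p = 0.00898), when its levels were 5.71, 5.52, 5.18, 5.57 and 5.77 at 50 mg/kg and 6.43, 5.68, 6.39, 6.34 and 6.42 in vehicle. By day 85 Tek was higher instead, at 5.83, 5.73, 5.65 and 6.24 against 5.28, 4.91, 5.08, 4.94 and 5.29 (0.76 ± 0.20, adjusted p = 0.0112), and this was lost without antibody replicate 4 (adjusted p = 0.0907). The shares of all genes called on days 8 and 85 were 8.19% and 4.47%.

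After dosing, osteoblast captures showed Kdr lower on day 237 and Emcn higher on day 309. Kdr had 3.95, 4.32, 4.68 and 5.04 on day 237 in rats that had received 50 mg/kg, against 5.00, 5.19, 4.91, 5.47 and 5.30 in vehicle rats (log2 change -0.68 ± 0.19, SE, adjusted p = 0.0118). Without antibody replicate 1 that change was -0.50 (adjusted p = 0.114), and with signal spread as a covariate it was -0.59 (adjusted p = 0.053). The mean of both Kdr probe sets, of which the one not chosen lay below the array median on average, gave -0.16 on day 237 and -0.09 on day 29 (adjusted p = 0.44 and 0.61). Emcn had 5.47, 5.57, 5.61, 5.14 and 5.14 on day 309 against 4.60, 4.43, 3.98, 4.05 and 4.64 in vehicle, with no overlap (1.04 ± 0.27, adjusted p = 0.0105). The spread of signal on those arrays was 3.41 at 50 mg/kg and 3.08 in vehicle, and with it as a covariate the Emcn change was 0.51 (adjusted p = 0.508). Without antibody replicate 3 or vehicle replicate 3 the Emcn call was lost as well (highest adjusted p = 0.067). The vehicle mean of Emcn on day 309, at 4.34, was the lowest of the 8 vehicle days in osteoblasts. The 50 mg/kg mean on that day was 5.38, beside vehicle means of 5.35 on day 237 and 5.38 on day 267. The shares of all genes called were 10.7% on day 237 and 10.5% on day 309.

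Lining cell captures gave 1 call among 36 member tests at 50 mg/kg and 0 among 36 at 3 mg/kg, with 7 and 6 tests at an unadjusted p under 0.05 by limma. All gene tests gave 0.777% and 0.195%. The call was Bcl6b on day 309. At 3 mg/kg on day 267, Emcn ran between 5.29 and 5.79, and between 4.77 and 5.20 in vehicle. These groups did not overlap, but Emcn was not called there. On day 8 the mean of both doses was lower than vehicle for Emcn by a log2 value of -0.70 ± 0.23, for Kdr by -0.43 ± 0.14 and for Tek by -0.45 ± 0.17 (SE), but none passed (adjusted p = 0.203, 0.242 and 0.319), and 0.310% of all genes did. Emcn levels on that day were 5.38, 4.65, 4.14, 4.65 and 5.66 at 50 mg/kg and 5.96, 6.05, 5.77, 5.18 and 5.33 in vehicle. On days 85, 183 and 237, when osteocytes had their largest changes, Emcn in lining cells overlapped between antibody and vehicle and was not called.

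**Figure D4:**
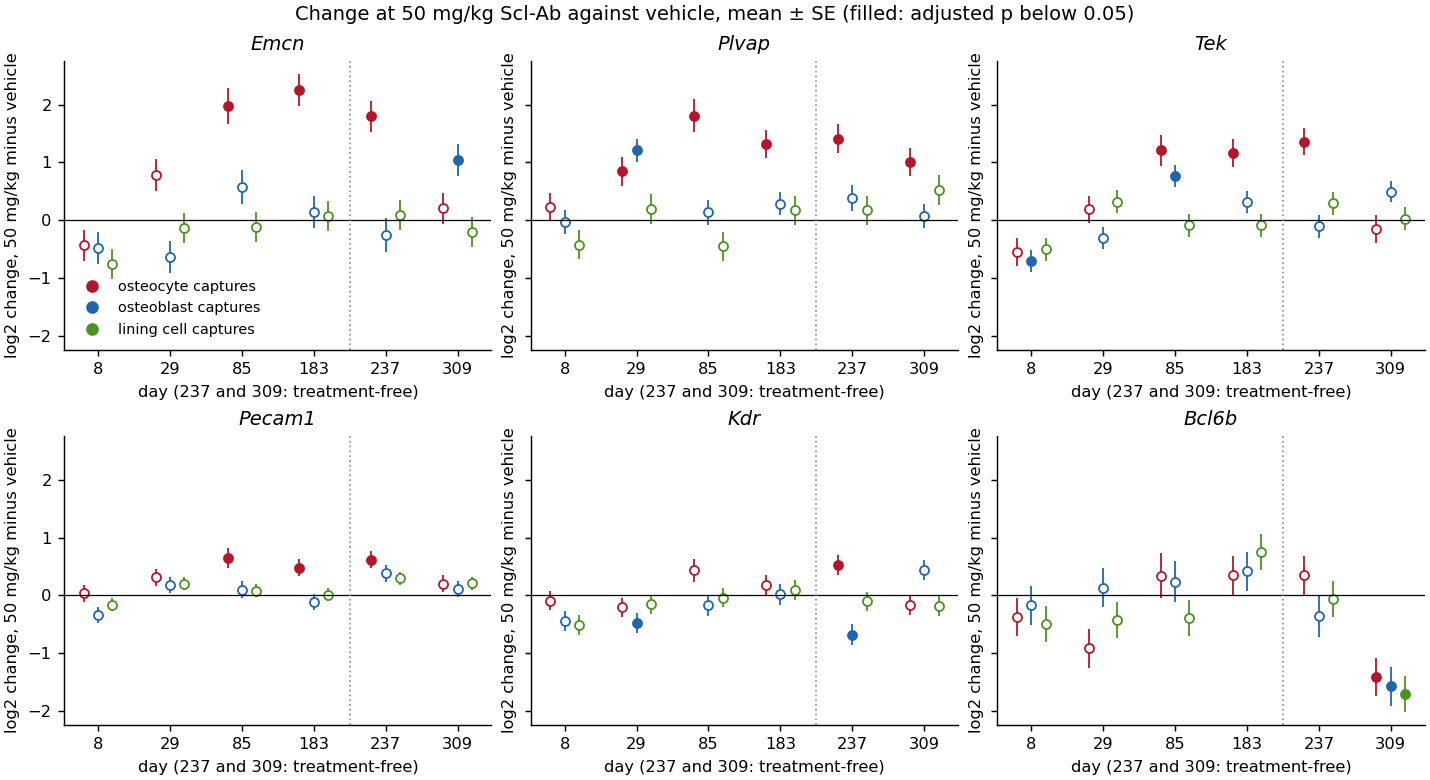
Log2 change at 50 mg/kg against vehicle on each day, mean with SE, for osteocyte, osteoblast and lining cell captures. Filled points passed the adjusted threshold. Emcn in osteocytes stands at 1.98, 2.25 and 1.80 on days 85, 183 and 237, above both surface types, and Bcl6b was lower in all 3 types on day 309.

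The difference in response between cell types was tested itself, in a fit over all 294 arrays. Averaged over doses and the 4 dosing days, Emcn's response in osteocytes exceeded that in lining cells by 0.87 ± 0.17 and that in osteoblasts by 0.70 ± 0.17 on the log2 scale (SE, adjusted p = 0.000147 and 0.00559). Plvap's exceeded that in lining cells by 0.60 ± 0.15 (adjusted p = 0.00664) and Pecam1's exceeded that in osteoblasts by 0.28 ± 0.08 (adjusted p = 0.0271). These are 2 of 6 members in each comparison, beside 2.67% of 12507 genes against lining cells and 3.57% against osteoblasts. By day, the response in osteocytes exceeded that in lining cells for Emcn by 1.19 ± 0.35, for Plvap by 1.21 ± 0.30 and for Tek by 0.98 ± 0.26 on day 85 (adjusted p = 0.0397, 0.0116 and 0.0219) and for Emcn by 1.42 ± 0.34 on day 183 (adjusted p = 0.0115), beside 2.21% and 0.640% of all genes. With array weights none of the 3 day 85 differences passed (adjusted p = 0.371, 0.177 and 0.291). At 50 mg/kg alone, a comparison added after the values were seen, the Emcn response on day 183 was larger in osteocytes than in lining cells by 2.18 ± 0.39 (adjusted p = 2.5e-05) and than in osteoblasts by 2.11 ± 0.39 (adjusted p = 5.54e-05). On day 237 it was larger than in lining cells by 1.70 ± 0.39 and than in osteoblasts by 2.05 ± 0.40 (adjusted p = 0.00153 and 6.69e-05). The shares of all genes called were 2.93% against lining cells and 3.20% against osteoblasts on day 183, and 4.25% and 8.48% on day 237. On day 85 the Emcn response was larger in osteocytes than in lining cells by 2.10 ± 0.42 and than in osteoblasts by 1.41 ± 0.43 (adjusted p = 0.000185 and 0.0336), where 5.86% and 4.74% of all genes were called, and the osteoblast difference was lost with array weights (adjusted p = 0.164). On day 29 it was larger than in osteoblasts by 1.42 ± 0.39 (adjusted p = 0.0105), beside 8.70% of all genes, which the signal spread covariate removed (adjusted p = 0.0828).

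Plvap and Tek also differed in response at 50 mg/kg. Against lining cells, Plvap's response in osteocytes was larger by 2.26 ± 0.37, 1.15 ± 0.34 and 1.24 ± 0.34 on days 85, 183 and 237 (SE, adjusted p = 1.59e-06, 0.0356 and 0.0132). Tek's was larger by 1.29 ± 0.32, 1.25 ± 0.30 and 1.07 ± 0.30 on those days (adjusted p = 0.00418, 0.00379 and 0.0149), and array weights removed the day 85 call (adjusted p = 0.0913). Against osteoblasts, Plvap's was larger by 1.67 ± 0.38 on day 85, 1.03 ± 0.35 on day 237 and 0.93 ± 0.34 on day 309 (adjusted p = 0.00188, 0.0456 and 0.0304), and 4 alternative settings removed the day 237 call (highest adjusted p = 0.111). Tek's was larger than in osteoblasts by 1.47 ± 0.31 on day 237 (adjusted p = 0.000216), and Pecam1's by 0.60 ± 0.18 on day 183 (adjusted p = 0.0437). Kdr differed in opposite directions on 2 days. Osteocytes minus osteoblasts was 1.20 ± 0.25 on day 237 (adjusted p = 0.000192), with a rise in osteocytes and a fall in osteoblasts, and -0.61 ± 0.24 on day 309 (adjusted p = 0.0455), beside 27.3% of all genes. The day 309 difference was lost with the mean of its probe sets (-0.22, adjusted p = 0.305), with quantile normalization (adjusted p = 0.0685) and with the signal spread covariate (-0.35, adjusted p = 0.373). Lining cells and osteoblasts differed in no member averaged over doses, and at 50 mg/kg only in Emcn on day 309 (-1.25 ± 0.39, adjusted p = 0.0213, beside 11.2% of all genes), which array weights (adjusted p = 0.147) and the signal spread covariate (adjusted p = 0.478) removed.

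Bcl6b set itself apart from the other 5. Its chosen probe set was lower at 50 mg/kg on day 309 in all 3 cell types: by -1.41 ± 0.33 in osteocytes, -1.57 ± 0.33 in osteoblasts and -1.70 ± 0.31 in lining cells on the log2 scale (SE, adjusted p = 0.00152, 0.0019 and 0.00119). In osteocytes the levels were 4.43, 4.71, 4.91, 4.41 and 4.90 at 50 mg/kg and 6.13, 5.86, 6.00, 5.76 and 6.67 in vehicle, without overlap. In osteoblasts they were 5.89, 4.85, 6.15, 5.21 and 5.61 against 7.10, 6.96, 7.48, 6.80 and 7.24, and in lining cells 5.23, 4.01, 6.13, 5.51 and 5.41 against 6.13, 6.57, 7.90, 6.65 and 7.54. The osteoblast groups did not overlap, and the lining cell groups met at 6.13. A fit of the compared groups alone removed the lining cell call (adjusted p = 0.504), and the signal spread covariate removed the osteoblast call (adjusted p = 0.0941). The vehicle groups of day 309 were the highest of the 8 vehicle days for this probe set in every cell type. The shares of all genes called on that day were 16.4% in osteocytes, 10.5% in osteoblasts and 0.405% in lining cells.

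The array carries 4 probe sets for Bcl6b, and the other 3 did not show the fall. Their log2 changes on day 309 ran between -0.30 and 0.29 over the 3 cell types, and none was called. Probe set 1381804_at was instead higher in osteocytes on day 237 by 0.77 ± 0.18 (SE, adjusted p = 0.00147), on which day the chosen probe set, 1386832_a_at, had 0.35 ± 0.33 (adjusted p = 0.565). Over all 294 arrays, after group means were removed, no pair of Bcl6b probe sets correlated above 0.13. With the mean of the 4 probe sets the day 309 change was -0.26 in osteocytes and -0.44 in lining cells, and both calls were lost (adjusted p = 0.116 and 0.0998), while the osteoblast change was -0.46 and its call stood. Kdr had a further probe set, 1397868_at, which in osteocytes on day 85 was lower at 50 mg/kg by -0.43 ± 0.15 (adjusted p = 0.0455), opposite in sign to the chosen one at 0.43 ± 0.19 (adjusted p = 0.152). Its mean log2 level was 2.93 in osteoblasts, 2.83 in lining cells and 2.72 in osteocytes, below the array median on average. The chosen Kdr probe set averaged 4.91, 4.33 and 2.87. After group means were removed, these Kdr probe sets had an r of -0.06.

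**Figure D5:**
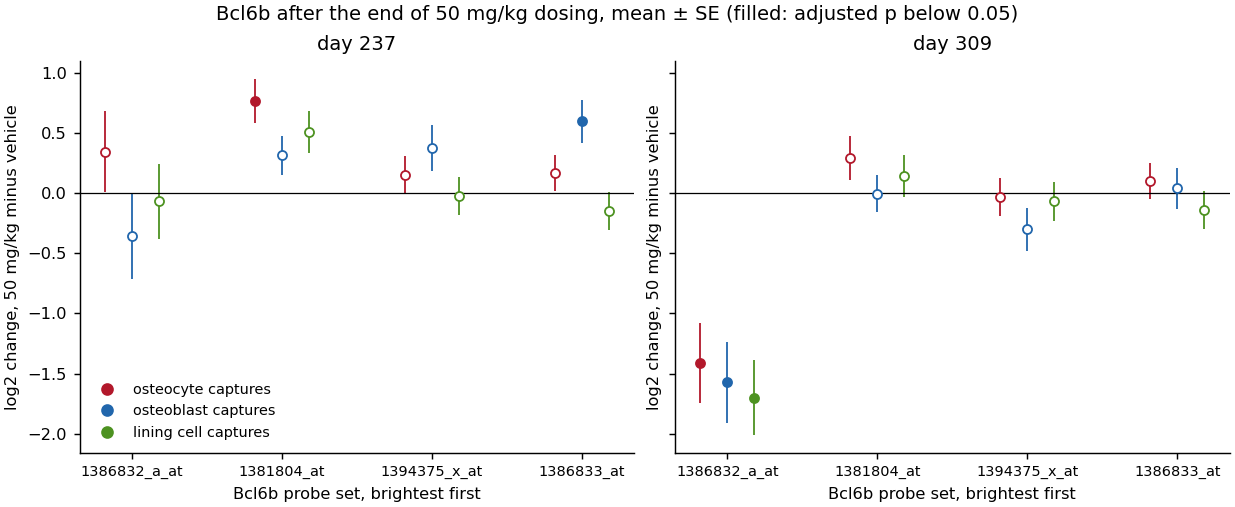
Log2 change of each of the 4 Bcl6b probe sets at 50 mg/kg against vehicle on days 237 and 309, mean with SE, by cell type. On day 309 the brightest probe set lies between -1.41 and -1.70 and the other 3 lie between -0.30 and 0.29.

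The members' deviations from their group means showed which of them varied together from array to array. Over the 294 arrays Emcn and Kdr had a Pearson r of 0.45, Emcn and Tek 0.42, and Kdr and Tek 0.42, while Plvap with Emcn had 0.23 and Bcl6b was between -0.08 and -0.03 with every other member. Within lining cell captures (n = 100) Bcl6b had r between -0.31, with Plvap, and -0.15, with Tek. Within osteoblast captures its r with the others lay between -0.05 and 0.10, and within osteocyte captures between -0.05 and 0.08 (n = 97 each). These are descriptions over arrays that share rats and array quality. The 8 genes whose deviations were most like the mean of the 6 members were Igfbp7 (r = 0.57), Col4a1 (0.46), Thbd (0.45), Sptbn1 (0.43), Tspan7 (0.43), Arhgap27 (0.42), Txnip (0.41) and C13h1orf115 (0.41). The median r over all genes was 0.08 when Bcl6b was left out of the mean. Igfbp7 encodes a secreted protein of vessels and Col4a1 a chain of basement membrane collagen. Both were higher in osteocytes at 50 mg/kg, Igfbp7 by 1.78 and Col4a1 by 1.43 on day 183 on the log2 scale (adjusted p = 1.82e-06 and 9.59e-06). Sptbn1 and C13h1orf115 were higher there too, by 0.72 and 1.44 (adjusted p = 0.00772 and 3.65e-06). Thbd, Tspan7, Arhgap27 and Txnip were not called there (adjusted p = 0.0525, 0.125, 0.946 and 0.882). Without Bcl6b, 5 of these 8 remained among the first 8.

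Other genes of the vessel wall, grouped by role and chosen with earlier results of these data known, moved in part with the members. Of 17 junction and surface genes tested in osteocytes at 50 mg/kg, 6, 7 and 7 rose on days 85, 183 and 237 and none fell, with median log2 changes of 0.34, 0.61 and 0.48. Mmrn2, an endothelial matrix protein, rose by 1.69 ± 0.25, 1.32 ± 0.22 and 1.16 ± 0.22 on those days (SE), and the junction genes Jam2 and Jam3 by 2.18 ± 0.33 and 0.94 ± 0.27 on day 183. The share of all genes called higher was 6.64%, 4.93% and 7.04% on those days. Cldn5, the claudin of endothelial tight junctions, rose by 0.81 ± 0.21 on day 183 and 1.14 ± 0.21 on day 237. Members of these lists that are named here without a call were picked after their values were seen. Vwf, the von Willebrand factor of endothelium and platelets, had -0.09 ± 0.31 on day 183 and was not called.

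The signalling genes showed a similar mixture. Of 14 VEGF and angiopoietin genes tested, 3, 5 and 6 rose on days 85, 183 and 237 and none fell, with median log2 changes of 0.03, 0.37 and 0.29. Vegfa, the ligand of Kdr, rose by 1.68 ± 0.24, 1.17 ± 0.21 and 1.10 ± 0.21 on those days (SE). Ptprb, a vascular phosphatase that acts on Tek, rose by 1.65 ± 0.34 on day 183, and Aplnr, the apelin receptor, by 1.01 ± 0.23. Flt1, the other VEGF receptor of vessels, had -0.11 ± 0.12 on day 183, and Tie1, the partner of Tek, had 0.42 ± 0.15 (adjusted p = 0.0817). Of 15 transcription factors tested, 3, 3 and 3 rose and 0, 0 and 2 fell on those days, of which Mef2c rose by 3.03 ± 0.34 on day 183. Mef2c acts in endothelium and is also known as a regulator of Sost in osteocytes. Sox7, Sox17, Sox18, Erg and Fli1 were not called on day 183, with log2 changes between -0.01 and 0.32. Of 9 Notch genes tested, 2, 0 and 4 rose, among them Hey1, a Notch target, by 1.14 ± 0.30 on day 85 and 1.26 ± 0.26 on day 237. Of 11 genes of sinusoids, lymph vessels and venules, 2 rose on each of the 3 days, namely Stab1, a scavenger receptor of sinusoids and macrophages, and Pdpn, which marks lymphatic endothelium and also osteocytes. Stab2 and Lyve1 had -0.08 ± 0.25 and -0.07 ± 0.20 on day 183 and were not called. Between vehicle captures, 15 of the VEGF and angiopoietin genes were tested. Against osteocytes, 9 were lower and 3 higher in lining cells (median log2 difference -0.17), beside 58.5% of all genes called in either direction. In osteoblasts 8 were lower and 2 higher than in osteocytes (median log2 difference -0.25), beside 63.8% of all genes called in either direction. Emcn, Kdr and Tek were instead higher in both surface types. Which cells gave the signal of Vegfa and the rest of this list was not tested.

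Markers of other cells moved along with the members in osteocyte captures at 50 mg/kg. Of 9 pericyte and vascular smooth muscle genes tested, 4, 3 and 5 rose on days 85, 183 and 237, with Rgs5 at 1.83 ± 0.35, Cspg4 at 1.75 ± 0.28 and Myh11 at 1.43 ± 0.33 on day 183 (SE). The summed signal of the 12 such genes on the array ran between 256 and 352 at 50 mg/kg and between 155 and 195 in vehicle on day 183. Of 5 osteocyte markers tested, 4, 3 and 4 rose on those days, Mepe by 2.82 ± 0.43 and Dmp1 by 2.17 ± 0.30 on day 183. The summed signal of the 6 on the array ran between 9555 and 14179 at 50 mg/kg on day 183, against between 1418 and 2756 in vehicle, with no overlap. Of 4 osteoclast markers tested, 2, 1 and 0 fell on days 85, 183 and 237, Ctsk by 1.59 ± 0.17 on day 85, where 3.50%, 1.45% and 6.16% of all genes fell. Osteoclast sums ran between 2475 and 3408 at 50 mg/kg and between 6862 and 9072 in vehicle on day 85, but between 10088 and 14849 at 50 mg/kg and between 7766 and 13264 in vehicle on day 237. Of 11 platelet and megakaryocyte genes, none was called on day 85 or 183, and 1, Gp9, fell on day 237. Of 10 erythroid genes, 0, 1 and 7 fell. Of 6 granulocyte genes, 1, 1 and 0 fell, of 2 B lineage genes 1, 0 and 0 fell, and of 7 osteoblast markers 3, 1 and 3 fell. Of 9 macrophage genes, 1, 2 and 0 rose and 1, 0 and 2 fell, with Mrc1 at 1.15 ± 0.26 and Adgre1 at 1.12 ± 0.22 on day 183 and Cd163 at -1.92 ± 0.30 on day 237. None of these markers has a true 0 on an array, and the part these cells had in the members' changes was not tested.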

How the data were processed

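Laser-captured osteoblasts, lining cells and osteocytes were measured on 294 Affymetrix arrays. The deposited intensities are RMA signals on a linear scale, between 2.94 and 28282. The submitters' processing notes list RMA, the affy package in version 1.38.1, R in version 3.0.1 and Expression Console without saying what each did, and RMA combines background correction, quantile normalization and probe set summary. Array medians differ between cell types, so normalization may have been done within each, and cell types were compared after quantile normalization together.

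The log2 of the signal was taken. Of 31042 probe sets, 20826 were annotated to 1 gene, 436 to several and 9780 to none listed; the brightest probe set stood for a gene. Genes above the array median on at least 5 arrays were tested with limma 3.58.1 in R 4.3.3, with 1 mean for each treatment and day, and p-values were adjusted by Benjamini-Hochberg over all genes tested (11412 in osteoblasts, 11600 in lining cells and 11859 in osteocytes). The fit was tested on simulated data. The number of arrays limits the precision. The members and lists were chosen with earlier results of these data known. The rule for named genes took the members in every comparison, by name where called, and of each list up to 4 called genes with the largest change. The 8 genes most like the members were ranked by Pearson r after group means were removed.

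Alternatives were array weights, quantile normalization, no filter, an intensity trend, the mean of a gene's probe sets, signal spread as a covariate, the compared groups alone, leaving out outlying arrays, the deposited values for cell types, and leaving out each array. The response between cell types at 50 mg/kg, the dose difference by day, the other probe sets and the likeness without Bcl6b were added after the values were seen.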

Additional observations from a re-analysis of the deposited data

Results flagged for a closer look

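Single arrays stood apart from the rest of their group at 6 places among 126 pairs of member and group checked in 21 groups, where chance alone gives about 1 in 20. In osteoblast captures, Emcn stood at a log2 level of 5.90 in replicate 4 of 50 mg/kg on day 237, against 4.78 to 4.85 in the other arrays. Pecam1 stood at 2.84 in replicate 4 of 50 mg/kg on day 8, against 3.28 to 3.37, and at 4.04 in replicate 3 of vehicle on day 8, against 3.40 to 3.56. Tek stood at 5.68 in replicate 2 of vehicle on day 8, against 6.34 to 6.43. In osteocyte captures, Kdr stood at 3.27 in replicate 2 of 50 mg/kg on day 183, against 2.78 to 2.81, and Pecam1 at 2.95 in replicate 1 of vehicle on day 237, against 3.15 to 3.20.

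The response to the antibody, as the mean of both doses, differed between cell types by its own test for 4 members. Over the dosing days it was larger in osteocytes than in osteoblasts by 0.70 for Emcn and 0.28 for Pecam1 on the log2 scale, and larger than in lining cells by 0.87 for Emcn and 0.60 for Plvap. Against lining cells on day 85 the difference was 1.19 for Emcn, 1.21 for Plvap and 0.98 for Tek, and on day 183 it was 1.42 for Emcn.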

How the results depend on the processing

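Of the 16 osteocyte calls at single doses, all were kept under an intensity trend, no filter, quantile normalization, the signal spread covariate and without outlying arrays. Array weights lost 2, the mean of probe sets lost 1 and a fit of the compared groups alone lost 3 of the 15 it tested. The number of member calls moved by over 1.5 times in the following. With array weights it was 2 for lining cells at single doses (1 in the report), 2 in lining cells (0), 2 in osteoblasts (1) and 2 in osteocytes (5) for the mean of doses, 3 for the response in osteocytes against lining cells (6), and 2, 6 and 5 for vehicle days in lining cells, osteoblasts and osteocytes (1, 3 and 2). With the signal spread covariate it was 3 in osteoblasts at single doses (7), 2 in osteoblasts for the mean of doses (1), 2 for osteoblasts against lining cells in vehicle (1), 4 for the response in osteocytes against osteoblasts (2), 1 for the response over time in osteoblasts (2), and 0 for vehicle days in lining cells (1) and in osteocytes (2). With the compared groups alone it was 2 in lining cells at single doses (1) and 3 in osteocytes for the mean of doses (5). With the mean of probe sets it was 0 in lining cells at single doses (1) and 0 for vehicle days in lining cells (1). Quantile normalization gave 4 for the response in osteocytes against osteoblasts (2). Without outlying arrays it was 1 for the response over time in osteoblasts (2) and 2 for vehicle days in lining cells (1). On the deposited values 6 members differed between osteoblasts and lining cells in vehicle rats (1), and Pecam1 reversed to 0.16 (-0.13). The cause was not tested.

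With each array left out in turn, calls at single doses ranged over 15 to 17 in osteocytes, 6 to 9 in osteoblasts and 1 to 1 in lining cells. For the mean of doses they ranged over 4 to 6 in osteocytes, 1 to 2 in osteoblasts and 0 to 0 in lining cells. The response over time gave 2 to 4 in osteocytes, 1 to 3 in osteoblasts and 0 to 0 in lining cells. Vehicle days gave 1 to 2 in osteocytes, 3 to 4 in osteoblasts and 0 to 2 in lining cells, and 50 minus 3 mg/kg gave 4 to 4 in osteocytes and 0 to 0 in the others. Comparisons across cell types were not run with arrays left out. No paired analysis was possible because the labels name no rat and the replicate numbers were given in accession order. Kdr in osteocytes and Pecam1 in all 3 cell types lie near the array median, where low signal limits what a change can show.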
